A study of Mus musculus with 16 samples.

Results

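Acp3, Dct, Chrna4, Dntt and Arhgap26 are 5 genes, of 41079 in the table of counts, that are known for roles in prostate, pigment cells, neurons, lymphoid progenitors and the cytoskeleton rather than in liver metabolism. They were chosen from these libraries because their RNA was lower in liver Gcgr knockout mice than in controls of both sexes. The knockout against control values of the 5 genes are therefore a description, and no p of theirs is given.

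Livers of 16 mice were sequenced after poly-A selection as paired reads, to compare mice with and without the glucagon receptor in the liver. All mice carried floxed Gcgr alleles, with loxP sites around part of the gene, on a C57BL/6J background, and were 20 to 22 months old. LKO mice also carried Albumin-Cre, a transgene that drives Cre recombinase from the albumin promoter and so mainly in hepatocytes, while CRE- controls lacked it and kept a working receptor. The groups were 4 male CRE-, 4 male LKO, 4 female CRE- and 4 female LKO mice, each library being a biological replicate by its label. Library totals ran from 33268424 to 56488920 reads on genes, and no 2 of the 120 library pairs held identical counts. Group medians of the total were 44288170 in male CRE-, 38475729.5 in male LKO, 46840916 in female CRE- and 37348750.5 in female LKO mice. Levels are given as CPM, counts relative to a library total scaled by TMM. Differences are tested over the 16742 genes that passed a filter on low counts, and an edgeR adjusted p is from the quasi-likelihood method after Benjamini and Hochberg, called when under 0.05.

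The glucagon receptor couples to stimulatory G protein and raises cAMP in hepatocytes, through which fasting glucose output and amino acid breakdown are turned on. Its gene spans chr11:120420011-120429815 on the plus strand of GRCm39. Male CRE- replicates 1 to 4 had Gcgr at 190, 193, 127 and 190 CPM, and male LKO replicates 1 to 4 at 117, 136, 130 and 160 CPM. Female CRE- replicates 1 to 4 had 162, 208, 201 and 180 CPM, and female LKO replicates 1 to 4 had 48.8, 132, 119 and 93.6 CPM. The male groups overlapped through CRE- replicate 3, whereas every female LKO library was below every female control. Gcgr was lower by a log2 difference of -0.93 in females (SE 0.25, edgeR adjusted p = 0.0443), and the male difference was -0.37 (SE 0.24, edgeR adjusted p = 0.671). The sexes were not shown to differ (interaction -0.57, edgeR adjusted p = 0.412). With 1 female library omitted at a time the female call held only without LKO replicate 2 (edgeR adjusted p = 0.0225), and in the other 7 fits the edgeR adjusted p was 0.0519 to 0.136 and the log2 difference -1.04 to -0.69. Counts cover the whole gene, exons outside the deleted segment included, and the deleted exons could not be counted apart.

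Hepatocyte genes led the libraries as the liver label requires, with Alb at a mean of 70700 CPM over all libraries. Of 10 hepatocyte genes 9 were tested, transferrin being listed by a symbol that the table does not use, and edgeR called none in either sex, while 2 had an unadjusted p under 0.05 and DESeq2 called 1. Over all genes tested 4686 (28.0%) had an unadjusted p under 0.05 in either sex and DESeq2 called 2021 (12.1%), the background for such counts in every list. The hepatocyte genes' summed level was 76500 to 119000 CPM in male controls and 72500 to 101000 CPM in male LKO mice, which overlap. In females the sum was 123000 to 145000 CPM in controls and 66500 to 103000 CPM in LKO mice, with no overlap. Its part in the lower member levels of female LKO mice was not tested. In bulk liver, fewer cells of a type and less RNA per cell cannot be told apart.

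Acp3 encodes prostatic acid phosphatase, a secreted and membrane-bound enzyme that removes phosphate from AMP to yield adenosine and is best known from prostate and pain-sensing neurons. The gene lies at chr9:104165439-104214921 on the minus strand of GRCm39. Acp3 stood in male CRE- replicates 1 to 4 at 20.0, 10.6, 14.5 and 20.5 CPM, and in male LKO replicates 1 to 4 at 1.23, 0.708, 0.447 and 0.756 CPM. In female CRE- replicates 1 to 4 it stood at 74.3, 15.4, 17.8 and 20.9 CPM, and in female LKO replicates 1 to 4 at 2.67, 3.09, 3.44 and 0.376 CPM. Female CRE- replicate 1 stood far above the other controls, and in each sex every LKO library was below every control. Acp3 was 20.8-fold lower in male LKO mice (log2 difference -4.38, SE 0.63) and 13.3-fold lower in female LKO mice (log2 difference -3.73, SE 0.60). Without female CRE- replicate 1 the female log2 difference was -2.91. The order of mean levels was female CRE-, male CRE-, female LKO and male LKO, in which the control groups overlapped and the LKO groups overlapped.

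Dct encodes dopachrome tautomerase, which converts dopachrome to a carboxylated indole on the way to eumelanin in melanosomes. It spans chr14:118250202-118289658 on the minus strand of GRCm39. Dct levels of male CRE- replicates 1 to 4 were 1.70, 5.61, 0.624 and 2.65 CPM, and those of male LKO replicates 1 to 4 were 0.0514, 0.0416, 0.0497 and 0.216 CPM. Levels of female CRE- replicates 1 to 4 were 11.6, 32.7, 16.6 and 22.8 CPM, and those of female LKO replicates 1 to 4 were 0.856, 0.748, 0.695 and 0.174 CPM. Every LKO library was below every control of its sex, and every female control was above every male control. The LKO level rested on few reads. Male LKO libraries held 2, 2, 2 and 8 reads of Dct, 14 in all against 478 in male controls, a ratio of scaled totals of 31.6 (exact 95% interval 18.7 to 58.3). Of these, LKO replicate 4 held 8 and CRE- replicate 2 held 252, and the fitted log2 difference of -4.89 was -5.73 without the former and -4.22 without the latter. Female LKO libraries held 108 reads against 3753 in controls, a ratio of 33.5 (exact 95% interval 27.6 to 40.9). Both mates of a pair were counted and PCR copies were not marked, so these intervals cover counting error only and are too narrow. From the highest mean the order was female CRE-, male CRE-, female LKO and male LKO, with overlap between male CRE- and female LKO and between the LKO groups.

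Chrna4 encodes the alpha4 subunit of neuronal nicotinic acetylcholine receptors, ion channels that most often pair it with the beta2 subunit. Its interval is chr2:180664104-180685339, minus strand, GRCm39. Male CRE- replicates 1 to 4 had Chrna4 at 28.5, 9.51, 17.8 and 24.4 CPM, and male LKO replicates 1 to 4 at 0.514, 2.73, 1.99 and 1.78 CPM. The female CRE- replicates 1 to 4 had 31.5, 8.82, 17.9 and 19 CPM, and female LKO replicates 1 to 4 had 0.403, 2.99, 1.21 and 8.16 CPM. Female LKO replicate 4 came close to the lowest female control, yet the groups did not overlap in either sex. The fitted fold was 11.4 lower in male LKO mice (log2 difference -3.51, SE 0.72) and 6.10 lower in female LKO mice (log2 difference -2.61, SE 0.69). Without female LKO replicate 4 the female log2 difference was -3.66. Control groups were at like levels in the sexes and overlapped, as did the LKO groups.

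Dntt encodes terminal deoxynucleotidyl transferase, a template-independent polymerase that adds nucleotides at the joints of antigen receptor genes in developing lymphocytes. It spans chr19:41017701-41047964 on the plus strand of GRCm39. Dntt was measured in male CRE- replicates 1 to 4 at 1.85, 3.83, 2.29 and 5.24 CPM, and in male LKO replicates 1 to 4 at 0.154, 0.125, 0.596 and 0.999 CPM. Female CRE- replicates 1 to 4 had 8.45, 8.95, 3.76 and 16.4 CPM, and female LKO replicates 1 to 4 had 1.21, 1.72, 1.81 and 1.39 CPM. In each sex all LKO libraries were below all controls, and all female LKO libraries were above all male LKO libraries. Dntt was 7.09-fold lower in male LKO mice (log2 difference -2.83, SE 0.58) and 6.11-fold lower in female LKO mice (log2 difference -2.61, SE 0.56). Without male LKO replicate 4 the male log2 difference was -3.51. Mean levels ran from female CRE- through male CRE- and female LKO to male LKO, with overlap only between the control groups.

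Arhgap26 encodes GRAF1, a BAR-domain protein that takes part in clathrin-independent endocytosis. It spans chr18:38734531-39509338 on the plus strand of GRCm39, with 36311 bases of annotated exon. Male CRE- replicates 1 to 4 had Arhgap26 at 20.9, 18.7, 34.3 and 20.8 CPM, and male LKO replicates 1 to 4 at 7.23, 7.97, 11.1 and 9.10 CPM. Female CRE- replicates 1 to 4 had 20.3, 19.8, 23.6 and 25.8 CPM, and female LKO replicates 1 to 4 had 15.3, 7.38, 8.94 and 8.10 CPM. Male CRE- replicate 3 and female LKO replicate 1 were the high libraries of their groups, and no LKO library reached a control of its sex. Arhgap26 was 2.67-fold lower in male LKO mice (log2 difference -1.42, SE 0.25) and 2.26-fold lower in female LKO mice (log2 difference -1.17, SE 0.25), the smallest fold differences of the 5 genes. The sexes overlapped within each genotype.

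**Figure D1:**
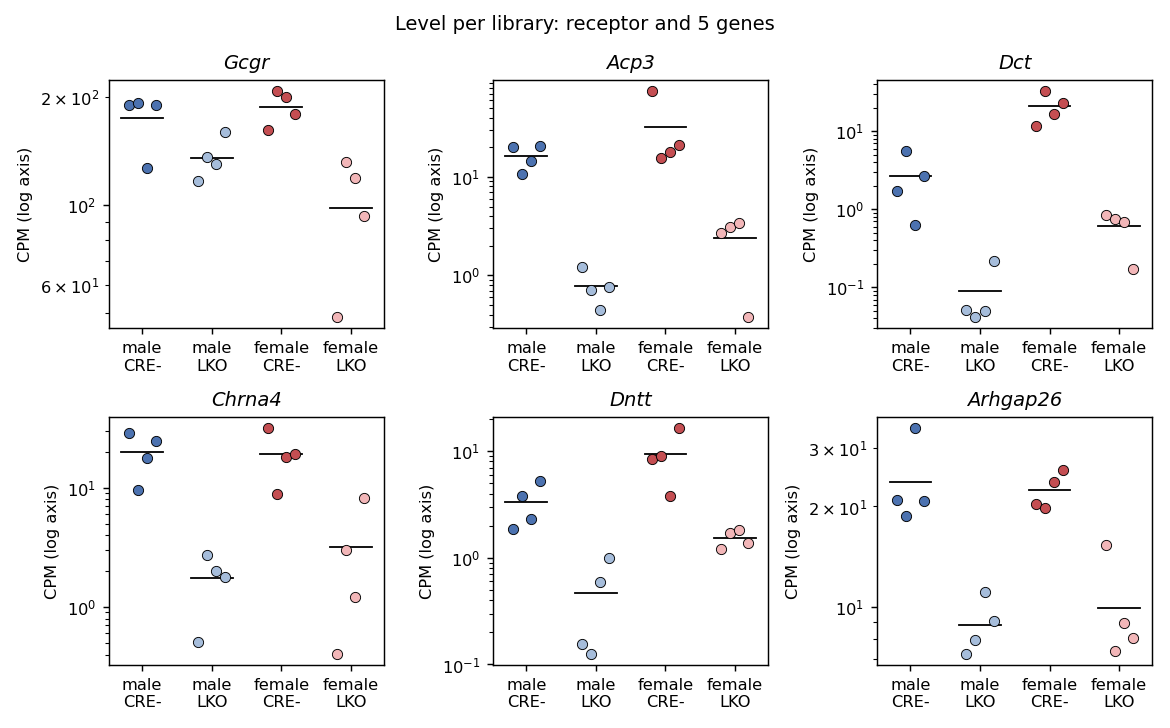
CPM on a log axis for Gcgr and the 5 genes in each of the 16 libraries (points, ordered by replicate number), with the group mean as a bar, n = 4 per group. All 5 genes have every LKO point below every control point of the same sex, while the Gcgr groups of males overlap.

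All 5 genes passed the filter on low counts, which the levels in controls alone would have met. They are 5 of the 39 genes (0.233% of 16742 tested) called lower by edgeR in male LKO mice, of the 360 (2.15%) called lower in female LKO mice, and of the 20 (0.119%) called lower in both. Genes with every LKO library below every control numbered 489 (2.92%) in males and 1074 (6.42%) in females, and 106 (0.633%) had this in both sexes, the 5 members included. The members were chosen on these contrasts, so nothing is read from those counts. The calls are those of the fit of all 16 libraries. With 1 library of the sex omitted, Chrna4 was not among the called genes in 8 of 8 male and 7 of 8 female fits, Dntt in 7 and 3, and Arhgap26 in 3 and 3. With only the 8 libraries of a sex fitted, Acp3, Chrna4 and Arhgap26 were not among them in females nor Dntt in males, and with the replicate block Chrna4 was not in males. In either direction 76 genes (0.454%) were called in males and 710 (4.24%) in females. Omitting 1 library at a time gave 26 calls in males without CRE- replicate 3 to 49 without CRE- replicate 4, and 87 calls in females without CRE- replicate 2 to 1310 without LKO replicate 2.

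Per length, Dct and Chrna4 traded places between the control groups. In female controls mean RPKM, the CPM per kilobase of exon, was 9.26 for Dct, 5.39 for Acp3, 4.38 for Dntt, 3.53 for Chrna4 and 0.617 for Arhgap26. In male controls it was 3.66 for Chrna4, 2.75 for Acp3, 1.54 for Dntt, 1.17 for Dct and 0.653 for Arhgap26. In female controls without replicate 1 it was 10.6 for Dct, 4.53 for Dntt, 3.03 for Acp3 and 2.79 for Chrna4, so the place of Acp3 before Dntt rests on that library, and without replicate 4 Dntt at 3.29 came after Chrna4 at 3.55. In male controls without replicate 2 the Dct mean was 0.734. Dct thus led in female controls, where 75.6% of the genes tested had a lower RPKM, and stood behind Chrna4, Acp3 and Dntt in male controls, where 38.3% did. Arhgap26 is divided by a very long annotated exon total, so its RPKM is low beside its CPM. Gcgr was at 64.0 RPKM in female controls and 59.7 RPKM in male controls.

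Whether the sexes differ among controls was not used to choose the genes, and it was tested over all 16742 genes. Dct was the only member of the 5 past the threshold. It was 7.89-fold higher in female than in male controls (log2 difference 2.98, SE 0.58, edgeR adjusted p = 0.0193), with all 4 female libraries above all 4 male ones. In total 154 genes (0.92%) were called in this comparison, and 68 to 149 with 1 control library omitted. The Dct call was lost without male CRE- replicate 1 or 4 and without female CRE- replicate 2 or 4, where the edgeR adjusted p was 0.0552 to 0.0880, and over the 8 fits with a control library omitted the log2 difference was 2.65 to 3.65. Dntt had a log2 difference of 1.51 (SE 0.53, edgeR adjusted p = 0.245) and Acp3 of 0.97 (SE 0.54, edgeR adjusted p = 0.467), neither past the threshold. Without female CRE- replicate 1 the Acp3 difference was 0.14. Chrna4 and Arhgap26 differed by -0.05 (SE 0.64) and -0.08 (SE 0.24), and intervals of 2 SE run from -1.34 to 1.23 for Chrna4 and from -0.57 to 0.40 for Arhgap26.

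The size of the LKO difference was also compared between the sexes, as the interaction term of the fit. By edgeR's adjusted p 0 of 16742 genes (0%) were called, while 2672 had an unadjusted p under 0.05 and DESeq2 called 371. Omitting 1 library at a time gave 0 to 14 calls. The members were chosen for lower levels in both of the differences that the interaction subtracts, so their values are conditioned by that choice and given as a description. Among them the interaction, female minus male log2 difference, was 0.90 for Chrna4 (SE 0.93), 0.64 for Acp3 (SE 0.79), 0.24 for Arhgap26 (SE 0.34), 0.21 for Dntt (SE 0.75) and -0.18 for Dct (SE 1.25). The sign of the Chrna4, Dct, Dntt and Arhgap26 terms changed with single libraries omitted, and the Acp3 term ran from 0.41 to 1.47, the latter without female CRE- replicate 1. Intervals of 2 SE run from -0.44 to 0.93 for Arhgap26 and from -2.67 to 2.32 for Dct.

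**Figure D2:**
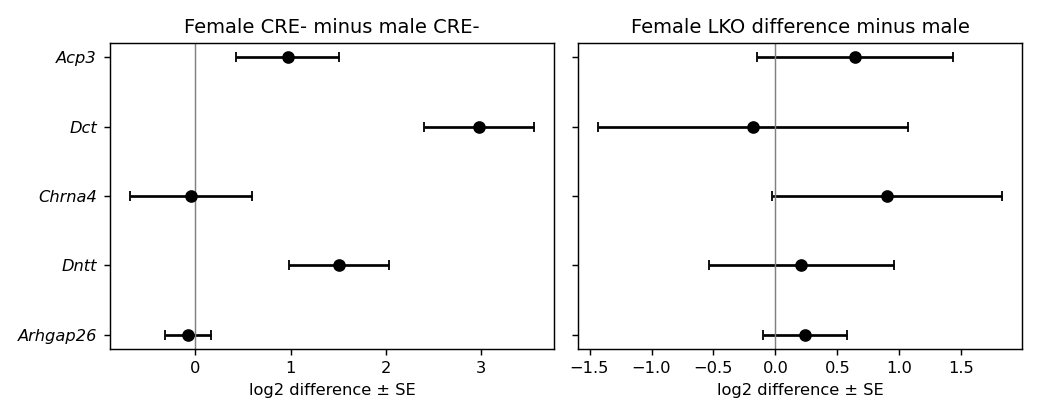
Log2 difference between female and male CRE- controls (left) and the female minus male LKO difference (right) for the 5 genes, with bars of SE from the joint fit of 16 libraries. Dct stands apart at 2.98 on the left, and on the right every bar reaches 0.

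Correlations within groups were used to describe how levels varied together among mice apart from genotype and sex. Dct and Dntt had a Pearson r of 0.47 (Spearman 0.51) over the 16 libraries after group means of log2 CPM were removed, and 0.32 to 0.53 with each library left out. Dct and Chrna4 had an r of -0.51 (Spearman -0.48), and -0.64 to -0.30 with each left out. These 2 were the largest in size of the 10 pairs, and the other 8 lay between -0.31 and 0.17, or between -0.54 and 0.39 with single libraries left out. Against Gcgr, Arhgap26 had an r of -0.73 (Spearman -0.52) over 16 libraries and -0.45 without female LKO replicate 1, the library with the lowest Gcgr and the highest Arhgap26 of its group. Dct against Gcgr had an r of 0.31 (Spearman 0.57) over 16 libraries and 0.86 without that library, and Chrna4 had an r of 0.41 (Spearman 0.15) and -0.18 without it. Acp3 against Gcgr had an r of -0.08 and 0.12 without that library, and Dntt had an r of 0.27 and 0.3. Leaving out that 1 mouse thus changed the sign for Chrna4 and raised the r for Dct, while the r for Acp3 was small either way. No other library was left out for the r against Gcgr. These correlations are descriptions over libraries that share groups, and no p is given.

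Dct and Dntt, the pair of members with the highest r, are shown by the 250 bases before their RefSeq start, 5′ to 3′ on the strand of the gene. RefSeq promoters (GRCm38.p6) were matched by symbol for Acp3 (as Acpp), Dct, Chrna4 and Dntt, 4 of the 5 genes, and placed on GRCm39 by an exact match that was single on its chromosome. Capitals mark CATGTG or its reverse complement CACATG, an E-box that is the core of the M-box bound by MITF in pigment gene promoters. The Dct window is chr14:118289659-118289908 on the minus strand and the Dntt window chr19:41017464-41017713 on the plus strand. The last bases of the Dntt window lie inside the gene interval of the deposited table, which starts at 41017701.
Dct: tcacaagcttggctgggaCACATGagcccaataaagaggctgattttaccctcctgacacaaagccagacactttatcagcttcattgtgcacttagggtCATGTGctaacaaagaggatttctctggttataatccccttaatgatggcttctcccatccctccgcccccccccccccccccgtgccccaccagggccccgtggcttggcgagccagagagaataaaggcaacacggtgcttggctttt
Dntt: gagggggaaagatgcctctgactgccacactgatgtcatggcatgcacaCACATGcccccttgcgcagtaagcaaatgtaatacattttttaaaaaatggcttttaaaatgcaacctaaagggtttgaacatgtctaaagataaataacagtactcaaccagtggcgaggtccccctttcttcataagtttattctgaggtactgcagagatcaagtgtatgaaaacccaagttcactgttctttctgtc
The Dct window holds 2 matches and the Dntt window 1, while the Acp3 window and the Chrna4 window, which lies inside the gene interval of the deposited table, hold 0. Of 32851 promoter windows of this length 12.3% hold at least 1 match and 1.62% at least 2. The half-site TGACG of the cAMP response element, searched with its reverse complement CGTCA, is in 0 of the 4 windows and in 17.8% of all, and TATAAA with its reverse complement TTTATA is in 0 of the 4 and in 12.4% of all. The windows differ in base composition, with 74.4% G and C for Chrna4, 54.0% for Dct, 50.4% for Acp3 and 41.6% for Dntt. A match is a run of letters and not a measured binding site.

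Genes most like each member were taken from the 3 with the highest Pearson r of log2 CPM over the 16 libraries among the other 16741 genes tested. That r takes in the group differences, so the r within groups is given beside it. For Acp3 they were Pou2af2 (r 0.942, within groups 0.63), a coactivator of tuft cell transcription, the zinc finger gene Bnc2 (0.894, within groups 0.47) and the semaphorin Sema4a (0.891, within groups 0.34). Dct was closest to Dntt (0.912, within groups 0.47), then to the glucuronosyltransferase gene Ugt1a5 (0.910, within groups 0.37) and Ankrd2 (0.908, within groups 0.85). Dntt was closest to Dct, then to Gm52743 (0.911, within groups 0.81) and Dhcr7 (0.885, within groups 0.56), which encodes the last enzyme of cholesterol synthesis. Chrna4 was followed by Slc23a1 (0.934, within groups 0.77), a vitamin C transporter, 4732419C18Rik (0.918, within groups 0.78) and the sphingosine 1-phosphate receptor S1pr5 (0.917, within groups 0.69). Among those of Arhgap26 were, at ranks 2 and 3, the organic anion transporter Slco2b1 (0.921, within groups 0.69) and the TEAD cofactor Vgll4 (0.913, within groups 0.63).

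Acp3 is one of the acid phosphatases, enzymes of several families that act at low pH. Of 6 others listed 4 were tested, and edgeR and DESeq2 called none in either sex, with 0 at an unadjusted p under 0.05. Acp4 and Acp7 had at most 4 and 6 reads in any library. The list had median log2 differences of 0.08 in males and -0.18 in females beside -0.01 and 0.04 over all genes tested. Acp5, most abundant at a mean of 124 CPM, had 122 CPM in male controls and 127 CPM in male LKO mice, and 131 CPM and 117 CPM in females. In the extracellular adenosine pathway 14 of 16 genes were tested and edgeR called 1, while 6 had an unadjusted p under 0.05 in either sex and DESeq2 called 3, with medians of -0.09 in males and -0.03 in females. That gene was Slc29a1, the equilibrative nucleoside transporter, at a log2 difference of -1.01 in female LKO mice (SE 0.21, edgeR adjusted p = 0.0206), with every female LKO library below every female control, and -0.17 in males. Its interaction had an edgeR adjusted p of 0.221, and the call was lost without female CRE- replicate 2, 3 or 4 or female LKO replicate 1 (edgeR adjusted p 0.0503 to 0.0749). Nt5e, the ectonucleotidase CD73 that makes the same conversion as Acp3, was at 37.2 CPM in female LKO mice, a log2 difference of -1.01 that was not called (SE 0.43, edgeR adjusted p = 0.183). It was higher in female than male controls by 2.76 (SE 0.46, edgeR adjusted p = 0.00598), at 75.2 against 11.1 CPM and with all 4 female libraries above all 4 male ones. Adk, adenosine kinase, was the most abundant gene of the list with a mean of 545 CPM.

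Melanocytes are the cells in which Dct is best known. Of 16 pigment cell genes 7 were tested and edgeR called none in either sex, while 2 had an unadjusted p under 0.05 and DESeq2 called 0, with medians of 0.15 in males and 0.06 in females. Tyrp1 and Oca2 had 0 reads in all libraries, and Tyr, Sox10 and Mc1r had at most 6, 6 and 4 reads in any library. Mlana and Trpm1 reached 36 and 34 reads in a library, and Pmel, which was tested, had mean levels of 0.507 to 0.688 CPM over the groups. Tyr encodes tyrosinase, which starts the pathway in which Dct acts. Mitf, the pigment lineage transcription factor that other cells also express, was at 4.56 CPM in male controls and 4.70 CPM in male LKO mice, and at 4.01 ± 0.685 CPM (SD, n = 4) in female controls and 6.42 ± 5.34 CPM in female LKO mice. The summed level of the list was 22.4 to 39.0 CPM in male controls and 25.2 to 38.6 CPM in male LKO mice, and 27.7 to 30.7 CPM and 24.3 to 58.2 CPM in females, where female LKO replicate 1 had 58.2 and the other LKO libraries at most 31.5 CPM, Ednrb being most abundant at 14.3 CPM.

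Other nicotinic subunits were rare. Of 15 genes 4 were tested (Chrna2, Chrnb1, Chrnb2 and Chrne) and edgeR called none in either sex, while 1 had an unadjusted p under 0.05 and DESeq2 called 0, with medians of -0.04 in males and -0.12 in females, and Chrna6, Chrna9, Chrnb3 and Chrng had 0 reads in all libraries, while Chrna3 reached 20 in one. Chrnb2, the usual partner of Chrna4, was at 3.19 CPM in male controls, 2.73 CPM in male LKO mice, 1.76 CPM in female controls and 1.68 CPM in female LKO mice. Chrne was at 0.318 and 0.0884 CPM in male controls and LKO mice and at 0.534 and 0.0903 CPM in females (log2 differences -1.77, SE 0.92, and -2.50, SE 0.93), and was not called (edgeR adjusted p = 0.568 in males and 0.125 in females). Chrna2 was the most abundant with a mean of 3.87 CPM. Of 10 neuron genes 4 were tested, and 0 were called by edgeR or DESeq2 or had an unadjusted p under 0.05, with medians of 1.14 in males and 0.53 in females. Chat, Slc18a3 and Slc5a7, the cholinergic neuron genes, had 0 reads in all libraries, while Th and Snap25, also untested, reached 70 and 18 in one. The neuron list summed to 8.09 to 14.3 CPM in male controls, 11.6 to 18.3 CPM in male LKO mice, 6.87 to 8.33 CPM in female controls and 8.88 to 12 CPM in female LKO mice, with Syt1 most abundant at 8.83 CPM.

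Lymphoid progenitors are the cells in which Dntt is best known. Of 12 symbols listed for them 10 match the table and 6 were tested, with 0 called by edgeR in either sex, 2 at an unadjusted p under 0.05 and 0 called by DESeq2, and medians of 0.09 in males and 0.66 in females. Rag2 had 0 reads in every library, and Rag1, Igll1 and Ptcra at most 6, 2 and 2 reads in any library. Pax5 was the most abundant at a mean of 6.75 CPM. The list summed to 7.28 to 26.5 CPM in male controls, 8.10 to 13.9 CPM in male LKO mice, 8.60 to 14.1 CPM in female controls and 11.2 to 65.8 CPM in female LKO mice, of which replicate 1 had 65.8 and the others at most 18.7 CPM. All 10 genes of the polymerase X and end joining list were tested, with 0 called by edgeR, 1 at an unadjusted p under 0.05, 0 called by DESeq2 and medians of -0.06 in males and -0.09 in females. They included Polm, the closest relative of Dntt, at 6.07 CPM in male controls and 5.54 CPM in male LKO mice and at 4.78 CPM and 6.08 CPM in females, and Xrcc5, the most abundant, with a mean of 24.3 CPM. Of the 10 B and T cell genes, all tested, edgeR and DESeq2 called 0 and 1 had an unadjusted p under 0.05, and Cd79b was the most abundant at 6.25 CPM. The B and T cell genes summed to 15.9 to 39.7 CPM in male controls, 24.3 to 44.6 CPM in male LKO mice, 18.6 to 51.7 CPM in female controls and 16.2 to 69.1 CPM in female LKO mice.

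Of the 8 genes of the GRAF family and its partners, all tested, edgeR called none in either sex, while 4 had an unadjusted p under 0.05 and DESeq2 called 0, with medians of 0.01 in males and 0.29 in females. Arhgap42, a paralog of Arhgap26, was at 50.4 CPM in male controls and 45.6 CPM in male LKO mice, and 42.9 CPM and 28.9 CPM in females. Arhgap10, another paralog, was at 6.91 ± 3.92 CPM (SD, n = 4) and 2.74 ± 0.590 CPM in males and at 4.54 ± 1.51 CPM and 6.36 ± 7.30 CPM in females, and was not called (edgeR adjusted p = 0.456 in males and 0.673 in females).

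Targets of cAMP signalling lie downstream of the receptor. Of 20 symbols listed 19 match the table, and all 19 were tested, Cps1 of the hepatocyte list among them. By edgeR 1 was called in each sex, while 12 had an unadjusted p under 0.05 in either sex and DESeq2 called 5. Medians were -0.47 in males and 0.07 in females. In males 14 of the 19 log2 differences were negative and in females 9. The list summed to 4640 to 6350 CPM in male controls and 2240 to 4100 CPM in male LKO mice, with no overlap, and to 4240 to 6390 CPM and 2540 to 7150 CPM in females, with overlap. The part of these genes in the member levels was not tested. Pde4b, a phosphodiesterase that breaks down cAMP, was at 21.1 ± 2.15 CPM (SD, n = 4) in male controls and 5.12 ± 0.252 CPM in male LKO mice, all 4 below all controls, a log2 difference of -2.04 (SE 0.28, edgeR adjusted p = 0.0029). Sik1, a kinase induced by cAMP, was at 17.3 ± 1.77 CPM (SD, n = 4) in female controls and 80.8 ± 74.7 CPM in female LKO mice, all 4 above all controls, a log2 difference of 2.22 (SE 0.46, edgeR adjusted p = 0.0194). The Sik1 call was lost without female CRE- replicate 2, 3 or 4 (edgeR adjusted p 0.0636 to 0.0691), and without female LKO replicate 4 its log2 difference was 1.35. Pde4b differed by -0.37 in females and Sik1 by -0.6 in males, and the interaction had an edgeR adjusted p of 0.135 for each gene, so the sexes were not shown to differ. Cps1, the most abundant of the list, had a mean of 1920 CPM.

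Markers of other liver cell types were followed as lists. Of 7 macrophage genes, all tested, edgeR called 0 in males and 1 in females, while 7 had an unadjusted p under 0.05 in either sex and DESeq2 called 6. Adgre1, which encodes F4/80, was called in females at a log2 difference of 2.15 (SE 0.57, edgeR adjusted p = 0.0451). The list median was 0.06 in males and 1.51 in females. The macrophage sum was 582 to 2710 CPM in female LKO mice and 375 to 619 CPM in female controls, highest in female LKO replicate 1, the library with the lowest Gcgr and hepatocyte sum, with Clec4f most abundant at 245 CPM. In males it was 405 to 757 CPM in LKO mice and 175 to 782 CPM in controls. Cdh5, 1 of 6 endothelial genes, all tested, was higher in females by 0.79 (SE 0.17, edgeR adjusted p = 0.0249), and edgeR called no other in either sex, while 3 of the 6 had an unadjusted p under 0.05 and DESeq2 called 2. Both genes were higher in all 4 female LKO libraries than in all 4 female controls. The interaction had an edgeR adjusted p of 0.218 for Adgre1 and 0.271 for Cdh5. With 1 female library omitted, Adgre1 was called only without LKO replicate 2 or 4, and its log2 difference was 1.21 without LKO replicate 1. Cdh5 was not called without female CRE- replicate 2, 3 or 4 or female LKO replicate 1 (edgeR adjusted p 0.0588 to 0.0745). The endothelial sum was 243 to 363 CPM in female LKO mice and 196 to 256 CPM in female controls, and 228 to 258 CPM and 149 to 239 CPM in males, with Stab2 most abundant at 58.8 CPM. None of 7 stellate and fibroblast genes, led by Dcn at 187 CPM, and none of 6 cholangiocyte genes, led by Spp1 at 68.0 CPM, was called by edgeR or DESeq2 for genotype, and 1 and 0 had an unadjusted p under 0.05. Their sums in LKO mice were 266 to 431 CPM and 72.3 to 90.4 CPM in males and 283 to 376 CPM and 66.8 to 147 CPM in females, and in controls 275 to 474 CPM and 43.6 to 101 CPM in males and 338 to 394 CPM and 53.3 to 118 CPM in females. Krt19 was higher in female than male controls by 1.66 (SE 0.35, edgeR adjusted p = 0.0300), with all 4 female libraries above all 4 male ones, a call lost whichever of the 8 control libraries was omitted (edgeR adjusted p 0.0562 to 0.0989). The part of these cell types in the member levels was not tested.

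The tested genes nearest to each member were read from the same tests. Nearest need not mean close, as Mrpl3 lies 715473 bases from Acp3 and Mir17hg 2966042 bases from Dct. The nearest tested genes, 2 with a midpoint on either side of the member's, are Dnajc13, Acad11, Gm28548 and Mrpl3 for Acp3, Gpc6, Mir17hg, Tgds and Gpr180 for Dct, Col20a1, Arfgap1, Eef1a2 and Ppdpf for Chrna4, Blnk, Zfp518a, Tm9sf3 and Pik3ap1 for Dntt, and Fgf1, Gm19774, Gm15337 and Nr3c1 for Arhgap26. Of these 20 genes 18 were called in neither sex, and the exceptions lie at Acp3 and Arhgap26. Over all genes tested edgeR called 0.454% in males and 4.24% in females. Genes farther out were not counted, among them Ptk6 at chr2:180836917-180845408, on the higher-coordinate side of Chrna4. Ptk6 was lower in female LKO mice (log2 difference -3.37, SE 0.62, edgeR adjusted p = 0.0136). In males its difference of -1.65 was not called (SE 0.61, edgeR adjusted p = 0.356). For Arhgap26 all but Nr3c1 lie within its interval, so its lower-coordinate flank was not covered.

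Gm28548, an uncharacterised gene at chr9:104239030-104262230 on the plus strand of GRCm39, starts 24109 bases from Acp3. Male CRE- replicates 1 to 4 held 18, 14, 0 and 30 of its reads and no male LKO library held any. Male CRE- replicate 3 thus did not differ from the LKO libraries. The exact 95% lower limit of the fold was 15.1, for counting error only. That limit is too high, because both mates of a pair were counted. With a floor of 3 reads assumed over the LKO group the fold would be 19.2. Female CRE- replicates 1 to 4 held 60, 6, 16 and 49 reads and female LKO replicates 0, 2, 0 and 0. The ratio was 63.1 (exact 95% interval 17.1 to 526, counting error only and likewise too narrow). It was called lower in females (edgeR adjusted p = 0.0369) and not in males (edgeR adjusted p = 0.128), with an interaction edgeR adjusted p of 0.700. The female call held only without LKO replicate 2 and was lost in the other 7 fits with a female library omitted (edgeR adjusted p 0.0691 to 0.0978). The fitted female log2 difference was -5.72, and -8.08 to -5.29 with 1 female library omitted.

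Gm15337 lies within the Arhgap26 interval at chr18:39485230-39504477 on the opposite strand of GRCm39 and shares 692 of its 12658 exon bases with Arhgap26 exons. Gm15337 stood in male CRE- replicates 1 to 4 at 6.15, 7.22, 6.01 and 6.97 CPM, and in male LKO replicates 1 to 4 at 0.566, 2.0, 1.89 and 2.35 CPM. Female CRE- replicates 1 to 4 had 6.88, 9.34, 5.94 and 7.14 CPM, and female LKO replicates 1 to 4 had 0.352, 1.35, 0.988 and 0.521 CPM. Every LKO library was below every control of its sex. The log2 difference was -1.95 in males (SE 0.40, edgeR adjusted p = 0.0419) and -3.18 in females (SE 0.43, edgeR adjusted p = 0.00274), with an interaction edgeR adjusted p of 0.303. The male call was lost whichever of the 8 male libraries was omitted (edgeR adjusted p 0.0729 to 0.102). Counting used strand, but the described library preparation names no step that marks it, so reads in the shared 692 bases of the 2 genes are uncertain. Fgf1, also inside the interval on the opposite strand, shares 0 exon bases with Arhgap26 and had log2 differences of -0.31 in males and -0.68 in females, neither past the threshold. The others within it are Gm19774, which was tested, Gm5820, with 80 reads over all libraries, and Gm52330, with 0. No annotated gene overlaps the other 4 members.

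**Figure D3:**
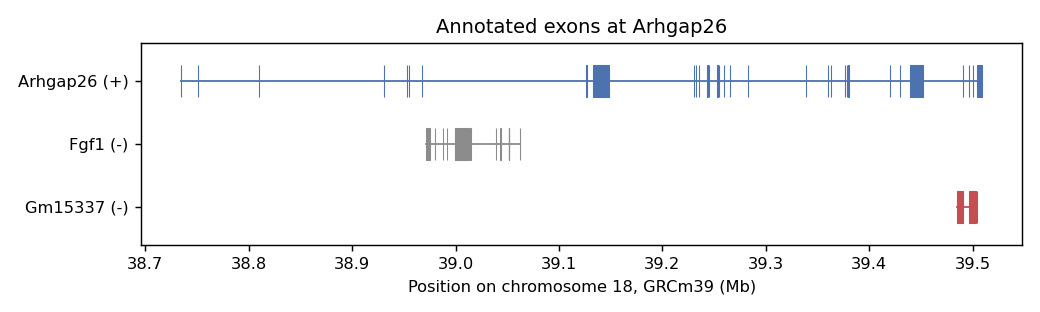
Annotated exons (boxes) of Arhgap26, Fgf1 and Gm15337 along chromosome 18 of GRCm39 in megabases, with the strand after each name. Gm15337 lies at the 3′ end of Arhgap26 on the opposite strand, and Fgf1 lies in introns.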

How the data were processed

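Livers of 4 mice per sex and genotype were profiled by poly-A RNA-seq. Per the labels and file headers, the authors aligned reads to GRCm39 with STAR 2.7.1a and deposited a raw count per gene from featureCounts (Subread 2.0.6), by strand. Each mate of a pair was counted, and 84.1% of counts from 1 to 20 are even. Counts were filtered with filterByExpr (minimum count 10), scaled by TMM and fitted with 4 groups by the quasi-likelihood method of edgeR 4.0.16 in R 4.3.3, with Benjamini-Hochberg adjustment and a threshold of 0.05. SE is the log2 difference over the square root of its F statistic. Log2 CPM used a prior count of 2. Named genes are the members, Gcgr, the called and most abundant genes of each list, the 2 nearest tested genes on either side by midpoint, overlapping genes and the 3 most correlated genes, except 2 such genes left unnamed. Ptk6 falls outside that rule. So do all other list genes named, untested ones included, which were chosen with their values seen. Members and lists were chosen with earlier results of these data known. The labels do not say what replicate numbers mark, and libraries were fitted without pairing. Library names carry other numbers for male CRE- replicate 4 and female LKO replicates 3 and 4, and replicate numbers are used here. After group means were removed, libraries of 1 number had an r of -0.25 to 0.33, and 10 of 16 libraries were most like one of their own number in another group, where 3 of 12 share it. Alternatives were RLE scaling, DESeq2 1.42.0, other filters, fits of 8 libraries, a replicate block, a prior count of 0.5, omitting each library and, chosen after seeing the data, halved counts. The steps were tested on simulated data.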

Additional observations from a re-analysis of the deposited data

Results flagged for a closer look

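In 3 of 20 groups of 4 libraries, 5 genes in 4 groups, 1 library lay far from the others of its group. For independent, normally distributed values chance gives this in about 1 in 20 groups. The 5 genes share libraries and some levels rest on few reads, so that rate need not hold here. Acp3 was at 74.3 CPM in female CRE- replicate 1 (gap over range 0.907), Dct at 0.216 CPM in male LKO replicate 4 (0.944), from 8 reads, and Arhgap26 at 34.3 CPM in male CRE- replicate 3 (0.858). The 3 libraries differ, and the cause was not tested.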

How the results depend on the processing

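The genotype differences of all 5 members kept their sign under every alternative that gave a value. The members were chosen for these differences and their groups do not overlap, so the kept sign is no evidence. Dct and Dntt gave no value with at least 10 counts required in every library. DESeq2 called 339 genes in males, 1816 in females, 509 between control groups and 371 for the interaction. Fits of only the 8 libraries compared called 119 in females and 249 between controls, the stricter filter called 78 between controls, and no filter called 12 for the interaction. The replicate block called 1244 in females. With 1 library omitted, calls ran from 26 to 49 in males, 87 to 1310 in females, 68 to 149 between controls and 0 to 14 for the interaction. Member values that changed sign did so only with 1 library omitted, and none was called. Among these, the interaction ran from -0.85 to 0.67 for Dct, -0.13 to 1.29 for Chrna4, -0.1 to 0.9 for Dntt and -0.01 to 0.37 for Arhgap26, and the female minus male control difference from -0.39 to 0.19 for Chrna4 and -0.19 to 0.13 for Arhgap26. The cause was not tested. Of the other genes called, Gcgr in females was not called by edgeR with no filter, the stricter filter or only 8 libraries (edgeR adjusted p 0.0506 to 0.132), Slc29a1, Sik1, Adgre1 and Cdh5 in females with only 8 libraries (edgeR adjusted p 0.0758 to 0.0857), and Krt19 between controls with no filter (edgeR adjusted p 0.0551). Gm28548 gave no value with only 8 libraries, the stricter filter or halved counts. Few reads limit Dct and Dntt in LKO mice.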
